A study of Mus musculus with 4 samples.

Results

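The genes described here are 10 components of transforming growth factor β (TGF-β) signalling: the ligand gene Tgfb1, the receptor genes Tgfbr1, Tgfbr2 and Tgfbr3, the signal transducer genes Smad3 and Smad4, and the feedback and inhibitor genes Smad7, Smurf1, Pmepa1 and Skil. They were taken by name from the 24062 genes of the count table, and all 10 were found and passed the filter on low counts, among 11271 genes tested. RNA came from gBT-I cells, CD8+ T cells with a transgenic receptor for a peptide of glycoprotein B of herpes simplex virus. Spleen cells of gBT-I mice kept specific pathogen free (SPF) were activated in culture with that peptide and LPS, were supplied with IL-1 on days 2 and 3 and were injected intravenously on day 4 into C57BL/6 mice that were either SPF or germ free (GF). The transferred cells were sorted from the recipients' spleens 7 days later, giving 2 libraries from SPF and 2 from GF recipients. Both groups thus share donor strain, culture and sort, and differ by label in the recipient alone. The labels give no age or sex of the mice and do not say whether the 2 libraries of a group came from separate mice, so p-values measure the spread between these libraries, which may be technical.

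TGF-β is secreted in a latent form and, once released, binds the type II receptor TGFBR2, which recruits and phosphorylates the type I receptor TGFBR1. The active complex phosphorylates SMAD2 and SMAD3, which join SMAD4 and move to the nucleus, where they switch on genes that include their own inhibitors. In CD8 T cells TGF-β is known for restraining effector functions and for inducing CD103, the integrin encoded by Itgae.

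Total counts ranged from 11544960 to 14431533 per library. Marker genes of CD8 T cells were abundant, at summed levels of 4411 to 5947 CPM (counts scaled to a fixed library total), led by the kinase gene Lck. Libraries numbered 2 differed from those numbered 1 in a similar way in both groups, and differences between libraries followed gene length. Spearman's rho with exonic length across 11195 genes, which share their libraries and are not replicates, was 0.52 for the difference of replicate 2 from 1 in SPF, 0.47 for the same difference in GF, and 0.36 for the log2 fold change of GF over SPF. The 10 genes are long, with a median exonic length of 5939 nt against 4408 nt over tested genes.

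No gene of the 10 passed the edgeR quasi-likelihood test with Benjamini-Hochberg adjustment over all tested genes, which called 0% of them (smallest adjusted p = 0.86). That test called 363 of the 11271 genes at an unadjusted p under 0.05, 3.22% of them, and DESeq2 and the edgeR exact test called 9 genes each after adjustment, none of the 10. Among the 10, 3 had an unadjusted p under 0.05, all with higher values in GF: Tgfbr3, Pmepa1 and Smurf1. The background in that direction was 2.17%. The 10 were chosen with earlier results of these data known, so their counts beside the backgrounds given here are descriptions only. In 5 of the 10 both GF libraries lay above both SPF libraries (Tgfb1, Tgfbr3, Smad4, Smurf1 and Pmepa1), where 16.8% of all tested genes did, and in 0 of the 10 both lay below, where 16.4% did. The median log2 fold change of the 10 was 0.19, against -0.00 over all tested genes. Pmepa1 passed the filter on low counts through the GF libraries, where it was high, and without it these counts were 2 and 4 of 9 with a median of 0.12. The count of 3 fell to 1 without SPF replicate 1 and to 1 without GF replicate 2 (Tgfbr3 each time), and to 0 without GF replicate 1. With the trend on gene length removed from each library, the median of the 10 was 0.18, and 7 had higher means in GF (49.6% of all tested genes). In that edgeR fit 3 had an unadjusted p under 0.05, all higher in GF, as had 413 of the 11271 genes. In 4 both GF libraries lay above both SPF libraries (19.5% of all tested genes) and in 0 below (19.7%). With 2 libraries a group, the smallest p that an exact two-sided permutation test allows is 0.33.

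**Figure D1:**
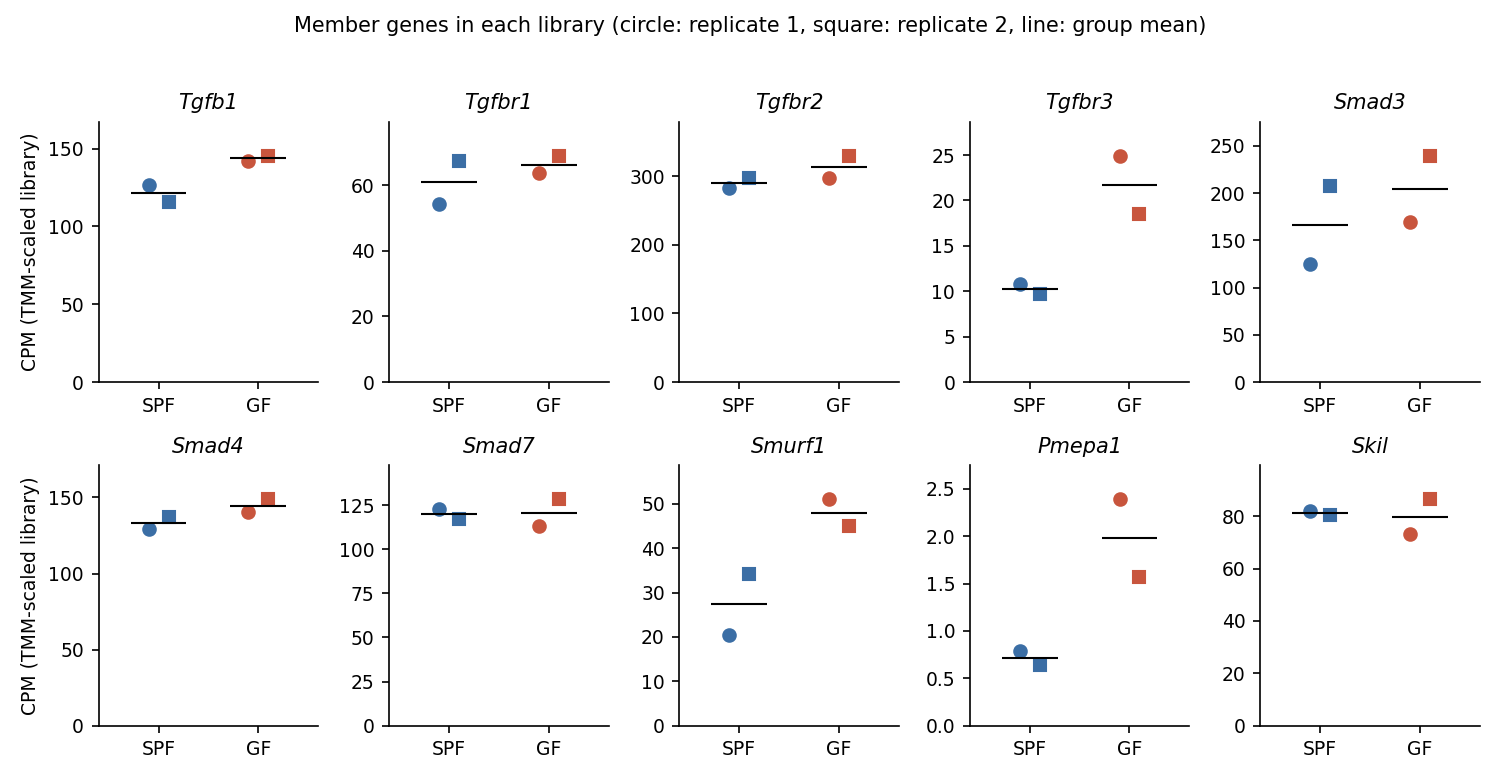
CPM of each of the 10 genes (y axis, from 0, TMM-scaled library size) in the 2 SPF (blue) and 2 GF (red) libraries, with circles for replicate 1, squares for replicate 2 and lines for group means. Tgfbr3, Smurf1 and Pmepa1 had the largest ratios of GF to SPF means (2.12, 1.75 and 2.78 as fitted folds), while Smad3 was higher in the libraries numbered 2 of both groups.

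Tgfb1, on chromosome 7 (25687002 to 25705077, plus strand, mm10), encodes the main TGF-β ligand made by lymphocytes. It measured 126 and 116 CPM in SPF replicates 1 and 2, and 142 and 145 CPM in GF replicates 1 and 2 (CPM of single genes use the TMM-scaled library size here and below). Both GF libraries lay above both SPF libraries, and the libraries of each group were close together. The SPF mean was 121.2 ± 7.4 CPM and the GF mean 143.9 ± 2.3 CPM (SD over 2 libraries), for a log2 fold change of 0.25 (SE 0.19) with an edgeR adjusted p of 0.86. The values were thus ordered by recipient, but by a difference little larger than its standard error.

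The signalling receptors differed little between groups. Tgfbr2, on chromosome 9 (116084293 to 116175360, minus strand), had the highest CPM of the 10 genes, at 284 and 298 CPM in SPF and 298 and 330 CPM in GF. SPF replicate 2 and GF replicate 1 were level, so the groups overlapped, with a log2 fold change of 0.11 (SE 0.20). With the trend on gene length removed from each library it was -0.04 (SE 0.16), so no direction is given. Tgfbr1, on chromosome 4 (47353222 to 47414931, plus strand), measured 54.2 and 67.5 CPM in SPF and 63.6 and 69.0 CPM in GF. SPF replicate 1 was the low library, the other 3 were close together, and the log2 fold change was 0.12 (SE 0.22). Without SPF replicate 1 it was -0.02. The edgeR adjusted p was 0.90 for Tgfbr2 and 0.89 for Tgfbr1.

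Tgfbr3 encodes betaglycan, a co-receptor without a kinase domain that presents ligand to TGFBR2 and, when shed, can hold ligand back. It lies on chromosome 5 (107106570 to 107289629, minus strand) and had the smallest p of the 10 genes, the 52nd smallest of all tested genes. Its counts were 123 and 138 in SPF and 365 and 259 in GF, or 10.7 and 9.75 CPM against 24.9 and 18.5 CPM. The SPF libraries were close together and both GF libraries lay well above them. The log2 fold change was 1.08 (SE 0.28, unadjusted p = 0.010 and adjusted p = 0.86 by the edgeR quasi-likelihood test), a fold of 2.12. GF exceeded SPF by 1.20 on the log2 scale between the libraries numbered 1 and by 0.92 between those numbered 2. With the length trend removed the log2 fold change was 0.99 (SE 0.29), and with each library left out in turn it lay between 0.85 and 1.28. An annotated transcript of unclassified type, Gm43422, shares 297 nt of exon with Tgfbr3 on the same strand, so reads there cannot be told apart.

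The level of Tgfbr3 relative to its partner receptor can be read within a library, where library scaling cancels. Per kilobase of exonic length, Tgfbr3 stood at 4.74% and 4.09% of Tgfbr2 in SPF, and at 10.5% and 7.02% in GF. Tgfbr1 stood at 23.9% and 28.4% of Tgfbr2 in SPF and at 26.8% and 26.2% in GF. The co-receptor was thus higher relative to TGFBR2 transcripts in both GF libraries, while the ratio of the kinase receptors overlapped between groups. These are 2 of 8 ratios computed, all given as descriptions and not set against ratios of other gene pairs. Skil over Ski was lower in both GF libraries, at 37.3% and 30.1% in SPF and at 26.2% and 27.8% in GF. For Smad3 over Smad2 and for Smad7 over Smad3 the groups overlapped.

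The receptor-activated Smad3 followed the replicate number more than the recipient. It lies on chromosome 9 (63646767 to 63757994, minus strand) and measured 124 and 207 CPM in SPF and 170 and 240 CPM in GF. The libraries numbered 2 were higher in both groups, by 0.73 on the log2 scale in SPF and 0.50 in GF, and the groups overlapped. GF exceeded SPF by 0.45 between the libraries numbered 1 and by 0.21 between those numbered 2. The fitted log2 fold change was 0.30 (SE 0.33, edgeR adjusted p = 0.86). The value moved with every library: it was 0.71 without SPF replicate 2, -0.02 without SPF replicate 1, 0.53 without GF replicate 1 and 0.03 without GF replicate 2.

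Smad4, the shared partner of the receptor-activated SMADs, is on chromosome 18 (73639009 to 73703780, minus strand). It measured 129 and 137 CPM in SPF and 141 and 149 CPM in GF. The 4 libraries lay within a narrow range and the groups were just separate, with a log2 fold change of 0.12 (SE 0.19, edgeR adjusted p = 0.89). The groups overlapped with the length trend removed. For comparison, Smad2, the other SMAD activated by the TGF-β receptors (picked here as the relative of Smad3), had a log2 fold change of -0.08 (SE 0.19). Its groups were just separate in the other direction, at 70.6 and 75.5 CPM in SPF and 67.8 and 70.1 CPM in GF.

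Smad7, Smurf1, Pmepa1 and Skil restrain the pathway at different steps. Smurf1 and Pmepa1 were higher in both GF libraries, while the groups overlapped for Smad7 and Skil. Smad7, an inhibitory SMAD that is itself induced by TGF-β and blocks the receptor, is on chromosome 18 (75367529 to 75395935, plus strand). It measured 123 and 117 CPM in SPF and 113 and 128 CPM in GF, so that both SPF libraries lay between the GF libraries. Its log2 fold change was 0.01 (SE 0.20, edgeR adjusted p = 0.99), and its sign differed between scalings. Skil, which encodes the co-repressor SnoN and is a target of the SMADs that it binds, is on chromosome 3 (31095058 to 31122577, plus strand). It measured 82.1 and 80.3 CPM in SPF and 73.0 and 86.5 CPM in GF, and here too the GF libraries lay on either side of the SPF libraries. The log2 fold change was -0.03 (SE 0.20, edgeR adjusted p = 0.97), or -0.23 (SE 0.20) with the length trend removed. These standard errors leave room for small differences in either direction.

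Smurf1 encodes a ubiquitin ligase that SMAD7 brings to the receptor for degradation and that also targets SMADs of the bone morphogenetic protein branch. It lies on chromosome 5 (144876495 to 144965847, minus strand) and measured 20.4 and 34.3 CPM in SPF and 51.0 and 44.9 CPM in GF. Both GF libraries were above both SPF libraries, and SPF replicate 1 was the lowest by far. The log2 fold change was 0.81 (SE 0.31, unadjusted p = 0.045 and adjusted p = 0.86 by the edgeR quasi-likelihood test), a fold of 1.75. Its size depended on the SPF library: between the libraries numbered 1 GF exceeded SPF by 1.31 on the log2 scale, and between those numbered 2 by 0.39. Without SPF replicate 2 the log2 fold change was 1.22 and passed the test (edgeR adjusted p = 0.0078), in a fit that called 11.5% of all genes and assumes that the lone SPF library varies like the others. Without SPF replicate 1 it was 0.49 and did not (edgeR adjusted p = 1.00). With the length trend removed it was 0.74 (SE 0.25).

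Relative to Smad7, its adaptor, Smurf1 stood per length at 11.9% and 20.9% in SPF and at 32.2% and 25.01% in GF. Relative to its close relative Smurf2 it stood at 39.4% and 41.6% in SPF and at 81.3% and 56.9% in GF. Smurf2 itself, picked as that relative, had a log2 fold change of 0.08 (SE 0.30), with groups that overlapped. Both ratios of Smurf1 were higher in each GF library than in either SPF library. Since the log2 fold changes of Smad7 (0.01) and Smurf2 were near 0, these ratios largely restate the values of Smurf1. The values cover reads only, and say nothing of the proteins.

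**Figure D2:**
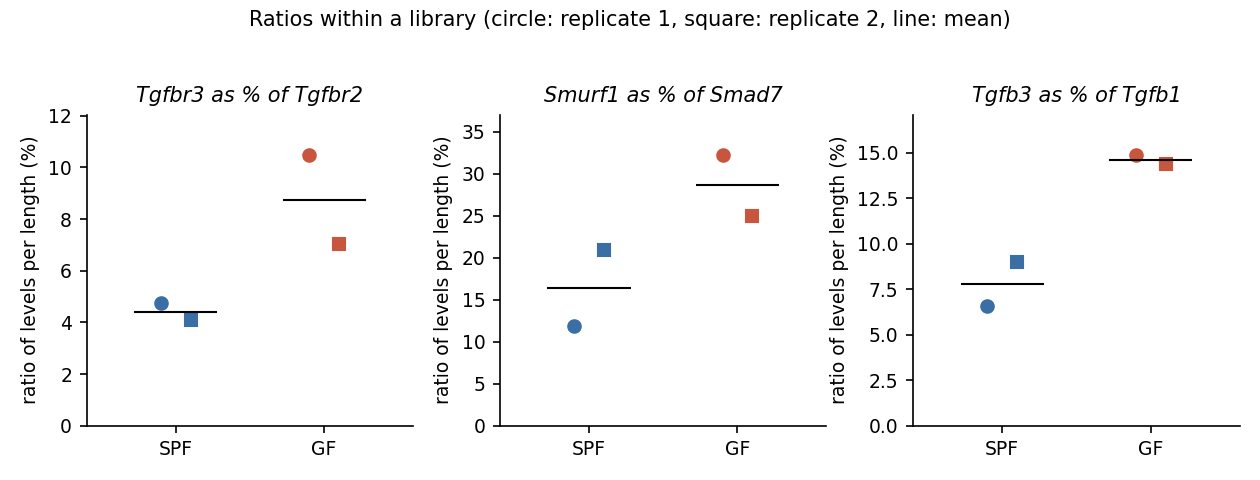
Ratio of levels per exonic length within each library, in percent (y axes, from 0), for Tgfbr3 over Tgfbr2, Smurf1 over Smad7 and Tgfb3 over Tgfb1 in SPF (blue) and GF (red), with circles for replicate 1, squares for replicate 2 and lines for group means. In each panel both GF libraries lie above both SPF libraries, with the nearest pair at 20.9% and 25.01% for Smurf1 over Smad7. Of the ratios not drawn, Smurf1 over Smurf2 was higher in both GF libraries and Skil over Ski was lower in both. The groups overlapped for Tgfbr1 over Tgfbr2, Smad3 over Smad2 and Smad7 over Smad3.

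Pmepa1 encodes a membrane protein that is induced by TGF-β and sequesters receptor-activated SMADs. It lies on chromosome 2 (173224458 to 173276533, minus strand) and was the least abundant of the 10 genes. Each SPF library held 9 counts of it, against 35 in GF replicate 1 and 22 in GF replicate 2. Exact 95% Poisson intervals, which cover counting error only, were 4.12 to 17.1 counts for each SPF library, 24.4 to 48.7 for GF replicate 1 and 13.8 to 33.3 for GF replicate 2. The interval of GF replicate 2 overlapped those of SPF, and that of GF replicate 1 did not. In CPM these were 0.79 and 0.64 in SPF against 2.39 and 1.57 in GF, a log2 fold change of 1.48 (SE 0.51, unadjusted p = 0.032 and adjusted p = 0.86 by the edgeR quasi-likelihood test). SPF replicate 2 was under the level the filter asks for, so the gene passed through the GF libraries, where it was high. DESeq2 gave it an unadjusted p of 0.095.

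**Figure D3:**
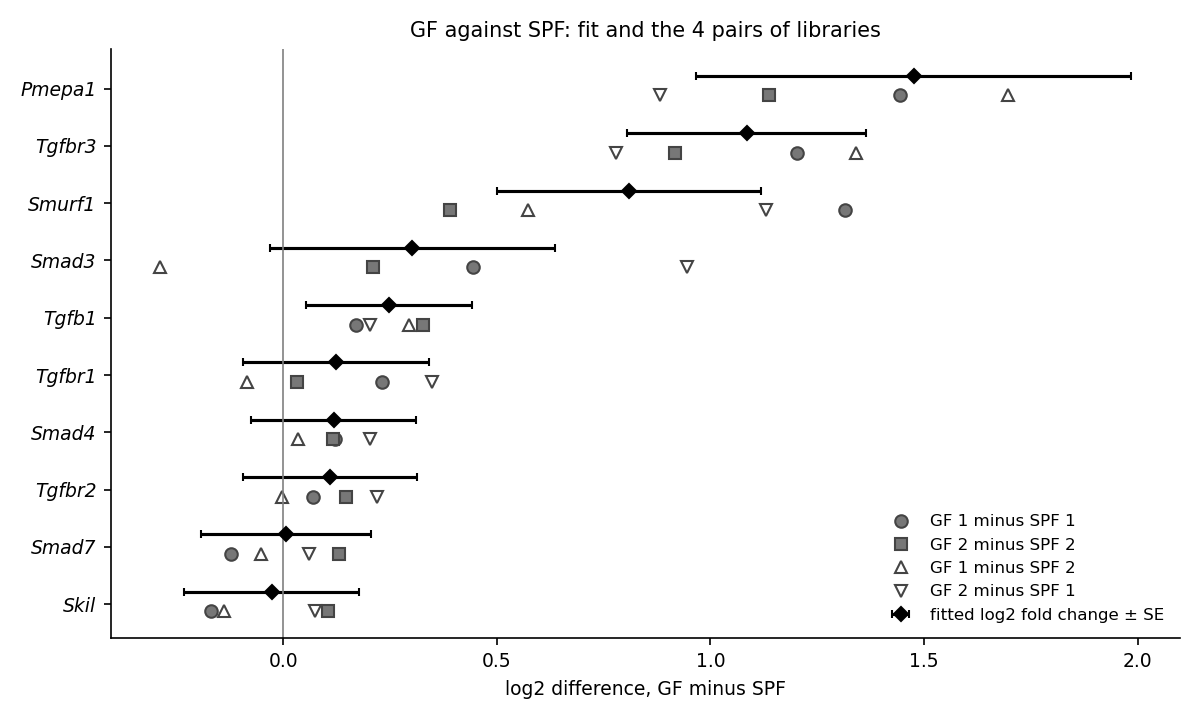
Fitted log2 fold change of GF over SPF with its standard error (black diamonds and bars) for each of the 10 genes, and the log2 differences of the 4 pairs of 1 GF and 1 SPF library (grey and open symbols), on the x axis. All 4 pairs lie above 0 for Tgfbr3 (0.78 to 1.34), Pmepa1 (0.88 to 1.70), Smurf1 (0.39 to 1.31), Tgfb1 (0.17 to 0.33) and Smad4 (0.03 to 0.20), and on both sides of 0 for the other 5 genes.

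Promoter sequences were at hand in RefSeq (GRCm38.p6, the assembly of mm10) for 5 of the 10 genes: Tgfb1, Tgfbr1, Tgfbr2, Smad3 and Smurf1. Those of Tgfb1 and Smurf1 are shown since they are the ones among these 5 whose groups did not overlap. The first is chr7:25686752-25687001 on the plus strand, and the second chr5:144965848-144966080 on the minus strand, both 5′ to 3′ and outside annotated exons. Capitals mark CAGAC or its reverse complement GTCTG, the short core that SMAD3 and SMAD4 can bind.
Tgfb1: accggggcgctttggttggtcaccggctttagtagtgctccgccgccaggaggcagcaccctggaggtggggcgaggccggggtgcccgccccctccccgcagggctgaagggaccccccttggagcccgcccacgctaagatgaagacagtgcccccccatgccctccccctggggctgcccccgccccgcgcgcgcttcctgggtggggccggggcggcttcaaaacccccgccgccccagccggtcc
Smurf1: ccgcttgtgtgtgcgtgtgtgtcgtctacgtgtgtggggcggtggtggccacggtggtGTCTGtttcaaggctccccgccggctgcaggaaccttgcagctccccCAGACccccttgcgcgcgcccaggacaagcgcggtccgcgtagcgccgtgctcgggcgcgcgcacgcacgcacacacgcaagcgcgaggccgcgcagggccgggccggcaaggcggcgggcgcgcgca
The Smurf1 stretch holds GTCTG beginning 192 bases and CAGAC beginning 145 bases before the RefSeq start, and that of Tgfb1 holds neither. Over all 32851 promoters of the table, 42.2% hold at least 1 of these 2 motifs in the 250 bases before the start, so a match is common. The palindrome GTCTAGAC, which contains neither motif, was in 0.17% of all promoters and in none of the 6 entries for these 5 genes. A match is a run of letters, not a measured binding site.

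Per kilobase of exonic length the 10 genes spanned a wide range. The mean of the SPF and GF means was 37.4 CPM per kb for Smad4, 36.9 for Tgfbr2, 33.4 for Smad3, 26.6 for Smad7 and 26.3 for Tgfb1. These were followed by Tgfbr1 at 9.73, Skil at 8.30, Smurf1 at 5.95, Tgfbr3 at 2.44 and Pmepa1 at 0.27 CPM per kb. Smad4, Tgfbr2 and Smad3 could not be ordered, since the library ranges of neighbours overlapped in both groups. Smad7 and Tgfb1 overlapped in GF but not in SPF, Tgfbr1 and Skil in SPF but not in GF, and Skil and Smurf1 in GF but not in SPF. Tgfb1 and Tgfbr1, Smurf1 and Tgfbr3, and Tgfbr3 and Pmepa1 were apart in both groups. The 3 genes with an unadjusted p under 0.05 were the 3 least abundant per length. Lengths are of all annotated exons of a gene merged, so a gene read from a short transcript form is placed too low.

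**Figure D4:**
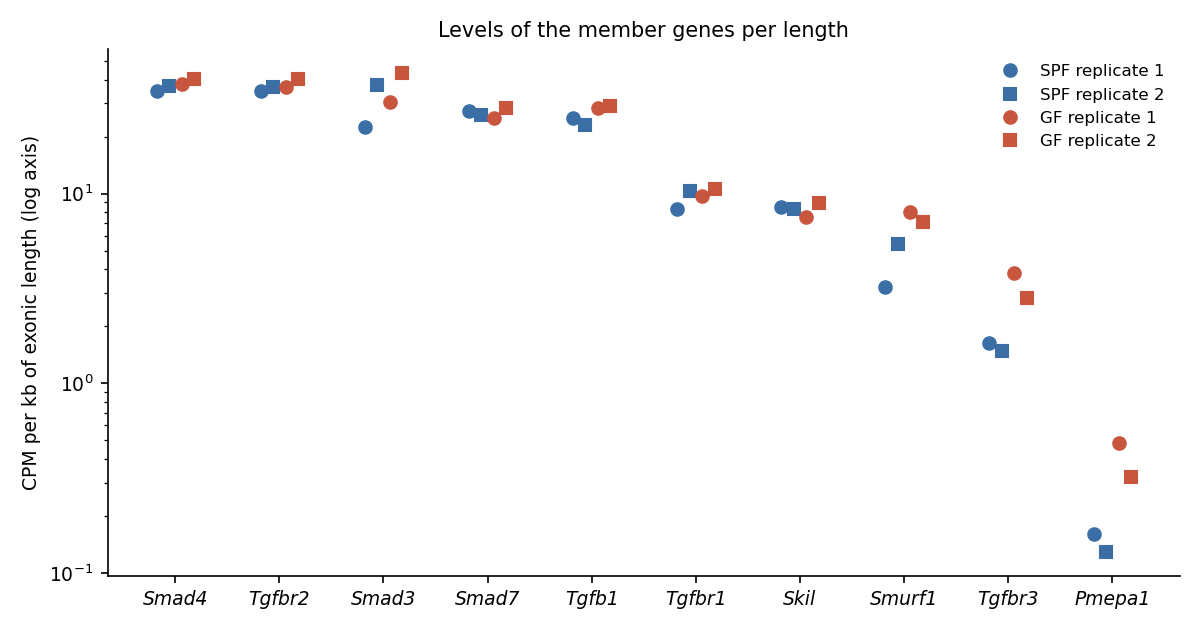
Level of each of the 10 genes in CPM per kb of exonic length (y axis, log scale) in each library, ordered by the mean of the group means from Smad4 (37.4) to Pmepa1 (0.27), with SPF in blue and GF in red. The 3 genes on the right, Smurf1, Tgfbr3 and Pmepa1, are those whose GF points lie farthest above the SPF points.

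The rest of the pathway was read from lists of 66 other component genes, also chosen with earlier results of these data known. Of those 66 genes, 46 were tested. None passed the edgeR test over all genes, 2 had an unadjusted p under 0.05 with higher values in GF and 0 with lower (backgrounds 2.17% and 1.05%). In 9 of the 46 both GF libraries lay above both SPF libraries and in 2 below, or 23.9% together against 33.2% of all tested genes. Means were higher in GF for 34 of the 46, where 49.7% of all tested genes were, and the median log2 fold change was 0.18. With the length trend removed 27 of the 46 were higher, 58.7% against 49.6% of all tested genes, with a median of 0.10.

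Among ligands, Tgfb3, whose product binds the same receptors as that of Tgfb1, measured 5.59 and 6.99 CPM in SPF and 14.2 and 14.0 CPM in GF. The GF libraries were level with each other and above both SPF libraries, with a log2 fold change of 1.16 (SE 0.29, unadjusted p = 0.0089 and adjusted p = 0.86 by the edgeR quasi-likelihood test). Per length, Tgfb3 stood at 6.59% and 8.99% of Tgfb1 in SPF and at 14.9% and 14.4% in GF. Inha, an inhibin subunit gene, had overlapping groups and a log2 fold change of 0.87 (SE 0.57). Of 8 other ligand genes 3 were tested, and Tgfb2 had between 1 and 4 counts per library.

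Of 11 genes of latency and activation 4 were tested. Ltbp4, a binding protein for latent TGF-β, measured 4.37 and 5.02 CPM in SPF and 9.77 and 7.51 CPM in GF, a log2 fold change of 0.88 (SE 0.33, unadjusted p = 0.041 and adjusted p = 0.86 by the edgeR test). Furin, the protease that cleaves the TGF-β precursor, measured 61.7 and 95.8 CPM in SPF and 118 and 126 CPM in GF, a log2 fold change of 0.63 (SE 0.27). Both genes, and Itgav (log2 fold change 0.27, SE 0.19), had higher values in GF and groups that did not overlap, 3 of 4 where 16.8% of all tested genes did. The activating integrin subunit genes Itgb6 and Itgb8 and the latent TGF-β docking gene Lrrc32 had 0 counts in every library, which allows up to 3 counts, or 0.21 to 0.26 CPM.

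The other receptors of the superfamily had 7 tested genes, all with higher means in GF and a median log2 fold change of 0.41. Only 1 of them, Acvrl1, a type I receptor gene, had groups that did not overlap, at 0.79 and 0.49 CPM in SPF and 1.09 and 0.93 CPM in GF. That is 1 of 7, where 16.8% of all tested genes were higher without overlap, and Acvrl1 too passed the filter through the GF libraries. Acvr1b, an activin type I receptor gene, measured 9.35 and 26.3 CPM in SPF and 22.5 and 32.8 CPM in GF, with the higher values in the libraries numbered 2. Other SMADs and nuclear partners had 4 of 7 higher and a median of 0.01 (3 of 7 and -0.18 with the length trend removed), with Smad1 at -0.31 (SE 0.30) and the co-activator gene Ep300 at 0.56 (SE 0.52). Ep300 was high in the libraries numbered 2 of both groups, as Smad3 was.

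Other brakes on the pathway had 8 of 14 higher, a median of 0.05 and 3 with groups that did not overlap, all higher in GF, where 16.8% of all tested genes were. The ubiquitin ligase gene Wwp2 measured 78.4 and 109 CPM in SPF and 118 and 132 CPM in GF (log2 fold change 0.42, SE 0.24), and Strap, a receptor-associated inhibitor gene, had a log2 fold change of -0.37 (SE 0.28). With the length trend removed the median of this list was -0.15 and 5 of 14 were higher. Among 4 ubiquitin and deubiquitin enzymes that raise signalling, Rnf111, whose product degrades SnoN and SMAD7, measured 104 and 125 CPM in SPF and 144 and 169 CPM in GF (log2 fold change 0.45, SE 0.22). Usp11 had a log2 fold change of 0.19 (SE 0.24). In the SMAD-independent arm 0 of 7 had groups that did not overlap, where 33.2% of all tested genes did, with Tab1 at 0.59 (SE 0.35) and the kinase gene Map3k7 at 0.26 (SE 0.25).

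**Figure D5:**
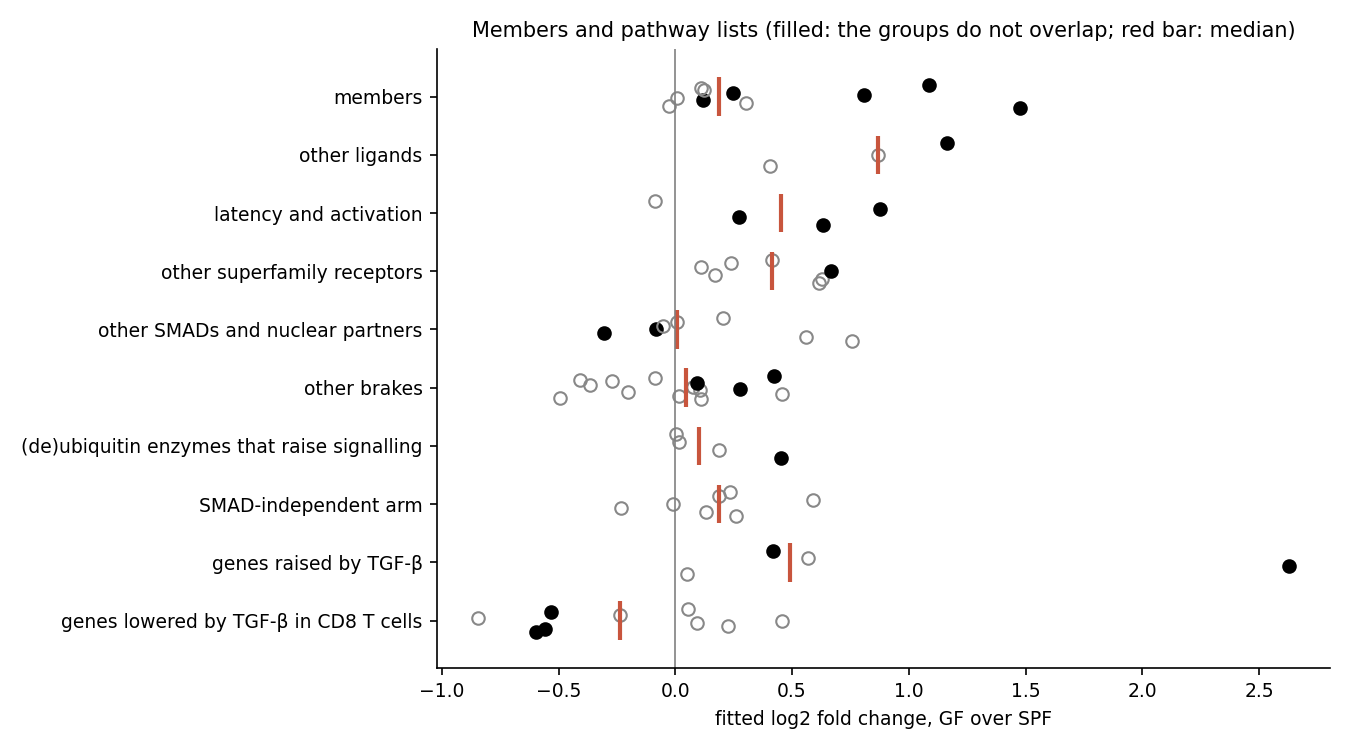
Fitted log2 fold change of GF over SPF (x axis) for each tested gene of the 10 members and of 9 pathway lists (rows), with filled points where the 2 groups' libraries do not overlap and red bars at the median. Points to the right of 0 prevail for ligands, latency genes and receptors, the brakes lie on both sides, and Itgae is the point at 2.63.

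Genes known to respond to TGF-β were read beside the pathway. Of 11 genes listed as raised by it, 4 were tested, and all 4 had higher means in GF (median log2 fold change 0.49), as 49.7% of all tested genes did. In 2 of the 4 both GF libraries lay above both SPF libraries, where 16.8% of all tested genes did. The list was made with earlier results of these data known. Itgae led them, at 21.1 and 39.4 CPM in SPF against 170 and 205 CPM in GF (log2 fold change 2.63, SE 0.36), and Nt5e, which encodes the ecto-nucleotidase CD73, measured 49.5 and 50.7 CPM against 57.4 and 76.4 CPM (0.42, SE 0.23). Reads of Itgae cannot be told apart by strand from those of Gsg2, which lies inside it on the opposite strand. For Junb and Cdkn1a, the other tested genes of the list, the groups overlapped. Junb measured 197 and 415 CPM in SPF and 358 and 548 CPM in GF, higher in the libraries numbered 2 of both groups. Cdkn1a had a log2 fold change of 0.05 (SE 0.54). The groups also overlapped for Smad7 and Skil, SMAD-induced genes too, as given above. Ctgf and Tgfbi had between 0 and 4 counts per library.

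Of 10 genes listed as lowered by TGF-β in CD8 T cells 9 were tested, 5 with lower and 4 with higher means in GF (median log2 fold change -0.24). Fasl, Prf1 and Eomes were the 3 of these 9 whose GF libraries were both lower than either SPF library, where 16.4% of all tested genes were. Tested NK cell markers other than Gzma were lower in GF without overlap too: Fcer1g by a log2 fold change of -1.29 (SE 0.46), Tyrobp of -0.75 (SE 0.42) and Klrb1c of -0.51 (SE 0.23). Their part in the lower values was not tested. Fasl, the death ligand gene, measured 59.3 and 49.9 CPM in SPF and 34.4 and 39.9 CPM in GF (log2 fold change -0.56, SE 0.22, unadjusted p = 0.049 and adjusted p = 0.86 by the edgeR test). Prf1, which encodes the pore-forming perforin, measured 77.5 and 104 CPM in SPF and 57.1 and 68.3 CPM in GF (-0.53, SE 0.24). Gzma, Gzmb, Ifng and Tbx21 of the same list had overlapping groups and higher means in GF. With the length trend removed the median of the list was -0.10.

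Tested genes were compared with Tgfbr3 by centred log2 CPM over the 4 libraries, leaving out symbols that begin with Gm and a digit or end in Rik. The 5 nearest were Pygm, Palm, Sbsn, Zdhhc14 and Sept10, with root mean square differences of 0.02 to 0.07. Of 10613 genes compared, 64 lay within 0.2. Likeness over 4 libraries is a description of these libraries.

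Markers of other cells were set beside these values, since a sorted sample can hold other cells, and in RNA of a cell population fewer cells of a type and less RNA per cell cannot be told apart. B cell markers summed to 95.02 and 26.5 CPM in SPF and 115 and 28.6 CPM in GF. They were high in the libraries numbered 1 of both groups, most of all Cd79b. GF exceeded SPF on the log2 scale by 1.20 for Tgfbr3, 1.44 for Pmepa1 and 1.31 for Smurf1 between the libraries numbered 1, and by 0.92, 1.14 and 0.39 between those numbered 2, where Pmepa1 rests on 9 SPF counts. Dendritic cell markers summed to 398 and 711 CPM in SPF and 782 and 986 CPM in GF. That sum was higher in GF and also higher in the libraries numbered 2 of both groups. Nearly all of it was Itgax, and 5 of the 7 markers, Flt3 and Clec9a among them, had fewer than 10 counts in every library. The remaining marker, Xcr1, measured 20.4 and 13.4 CPM in SPF and 18.9 and 14.0 CPM in GF. Its groups overlapped (log2 fold change -0.04, SE 0.33), and it was higher in the libraries numbered 1 of both groups.

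Platelets are a rich source of TGF-β1, and of 9 platelet and megakaryocyte markers 5, Pf4 among them, had 0 counts in every library. Their sum was 119 and 183 CPM in SPF and 108 and 155 CPM in GF, almost all Itgb3. The other detected markers were low and higher in GF without overlap: Itga2b at 1.92 and 3.32 CPM in SPF and 4.37 and 4.44 CPM in GF, and Gp1ba at 0.70 and 2.76 CPM against 4.17 and 3.29 CPM. Ppbp had 2 counts in SPF replicate 1 and 0 elsewhere. Macrophage and monocyte markers summed to 98.6 and 113 CPM in SPF and 85.4 and 123 CPM in GF, mostly Itgam. Among the low ones, Lyz2 had 48 and 8 counts in SPF and 65 and 0 in GF. Cd68 had 40 and 91 counts in SPF and 60 and 151 in GF. NK cell markers, led by Gzma, summed to 393 and 253 CPM in SPF and 399 and 292 CPM in GF, and 2 of the 7 had 0 counts throughout. Most of the sum was Gzma, at 320 and 201 CPM in SPF and 355 and 256 CPM in GF. Ncr1 had between 0 and 3 counts, and the other 3, lower in GF, are given above. Markers of CD4 and regulatory T cells, led by Zbtb7b, summed to 112 and 129 CPM in SPF and 81.9 and 108 CPM in GF. Nearly all of it was Zbtb7b, Cd40lg and Ikzf2. Cd4 itself had between 0 and 6 counts per library and Foxp3 between 2 and 17. Stromal and endothelial markers summed to 83.3 and 92.3 CPM in SPF and 110 and 90.2 CPM in GF, nearly all Pecam1. Neutrophil markers, led by S100a8, reached at most 0.78 CPM and erythroid markers, led by Alas2, at most 1.65 CPM. The part of other cells in the values of the 10 genes was not tested.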

How the data were processed

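RNA-seq of 4 libraries (2 SPF, 2 GF) was analysed from 1 table. The deposited values are raw counts of reads per gene, from libraries made with an Illumina TruSeq RNA kit from 1 µg of total RNA, per the labels' protocols. Per the submitters' processing notes, reads were handled on mm10 with TopHat, CASAVA, Picard, Subread, featureCounts and edgeR. Versions and settings: not given in the sources used here. Libraries were grouped by title.

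Counts were tested with edgeR 4.0.16 (R 4.3.3): TMM scaling, filterByExpr, quasi-likelihood F test between recipients with no covariate, two-sided, Benjamini-Hochberg over 11271 genes, threshold 0.05. Standard errors were derived from the F statistic (log2 fold change over its root). The scripts were tested on simulated data without differences by replicate number. Those data also had less spread between libraries than these, for which the common dispersion fitted by edgeR was 0.076. Log2 CPM differences between libraries use a prior count of 2. Marker sums use the plain library total. Positions and merged exonic lengths came from GENCODE M21 (GRCm38), which matched 99.3% of tested genes. The length trend was removed by a loess fit (span 0.5) per library. Alternatives used limma 3.58.1 and DESeq2 1.42.0, other scalings and filters, the replicate number as a block, and each library left out.

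Members and gene lists were chosen with earlier results of these data known. Named genes are the 10 members, up to 2 genes of each pathway list by smallest p, the 5 nearest to the member with the smallest p, and the most abundant gene of each marker list. Other genes named were chosen after their values were seen. Of the pathway lists these are Smad2, Smurf2, Ski, Itgav, Junb, Cdkn1a, Eomes, Gzmb, Ifng and Tbx21. Of the marker lists they are Fcer1g, Tyrobp, Klrb1c, Itga2b, Gp1ba, Cd40lg, Ikzf2, Xcr1, Lyz2 and Cd68. Those with few or 0 counts were chosen in the same way. Figures were drawn with matplotlib 3.10.9.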

Additional observations from a re-analysis of the deposited data

How the results depend on the processing

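Tgfb1, Tgfbr3, Smad4, Smurf1 and Pmepa1 had higher values in GF under all 15 alternatives. Log2 fold changes ranged from 0.85 to 1.28 for Tgfbr3, from 0.49 to 1.22 for Smurf1 and from 1.14 to 1.74 for Pmepa1. The sign of the others turned in places, always at values near 0. Smad7 was -0.0010 with upper-quartile scaling, -0.0035 without a filter, -0.0064 with the length trend removed and -0.0079 with the block and length together. Tgfbr2 was -0.044 with the length trend removed and -0.039 with the block and length together. With each library left out in turn, Smad7 ranged from -0.090 to 0.094, Tgfbr1 from -0.024 to 0.285, Smad3 from -0.017 to 0.711 and Skil from -0.157 to 0.088.

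With the replicate number as a block, 2 of the 10 members passed, Tgfbr3 (adjusted p = 0.0051) and Smurf1 (adjusted p = 0.011), among 1206 genes called by edgeR (786 higher, 420 lower), and with the block and the length trend removed 2 of 10 among 1244. No label says what the number marks. Replicate 2 minus 1 correlated between SPF and GF across genes (Pearson r = 0.71), a hint from the data. DESeq2 and the edgeR exact test called 9 genes each (8 higher, 1 lower) and limma-voom 0. With each library left out in turn, 0 to 1 members passed, 0 to 3 had an unadjusted p under 0.05, 5 to 10 had groups that did not overlap, and 0 to 1327 of all genes passed, with the lone library assumed to vary like the rest. That 1327 came without SPF replicate 2, and 17 passed without SPF replicate 1. Members without overlap were 5 higher without SPF replicate 1 (28% of all genes were higher), 8 without SPF replicate 2 (41.8%), 10 without GF replicate 1 (37.5%), and 5 higher and 2 lower without GF replicate 2 (26.2% and 25.2%). The causes were not tested. Depth limits Pmepa1 most, at 9 counts in each SPF library.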
